A study of Mus musculus with 11 samples.

Results

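Collagen genes were taken as the genes whose symbol reads Col, a number, a and a number, such as Col1a1. This gave 44 of the 24490 genes in the deposited counts. No measured value enters this rule, though it was set with earlier results of these data known. They were sorted by structure into fibrillar collagens (11 genes), type IV collagens of basement membranes (6), type VI or beaded-filament collagens (6), fibril-associated collagens with interrupted triple helices, called FACIT (9), short chain network collagens (3), multiplexins (2), the anchoring fibril collagen Col7a1 (1), transmembrane collagens (4) and others (2). After a filter on low counts 37 of the 44 were tested. Col2a1, Col9a2, Col19a1, Col22a1 and Col26a1 fell under that filter, and Col9a1 and Col13a1 had 0 reads in every library, which allows at most 0.126 CPM in the shallowest library, for counting error only.

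The cells were primary granulosa cells, the somatic cells that line the ovarian follicle around the oocyte, from mice of the RjOrl:SWISS stock whose age is not given in the sources used here. All 11 cultures were lipofected with 30 pmol of siRNA, the mix was taken off after 5 h, and RNA was collected at 30 h. A nontargeting scrambled siRNA (scramble) was given in 3 libraries, and each of 4 pools of Akt1 siRNAs in 2. Each pool held 3 of 4 siRNAs (numbered 6 to 9), so that pool 1 had no siRNA 9, pool 2 no siRNA 7, pool 3 no siRNA 8 and pool 4 no siRNA 6. The numbering of pools in the protocol was assumed to be that of the sample titles. Akt1 encodes a serine/threonine kinase downstream of PI3K, and the design asks what its knockdown changes and which changes depend on which siRNAs are in the pool. The labels do not say that replicates came from separate cultures, and a p-value here can therefore reflect technical spread alone.

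Most collagens are secreted trimers with a long triple helix. Fibrillar chains, such as those of types I, III, V and XI, pack into fibrils, while type IV chains join into the sheet that underlies basement membranes, including the basal lamina that granulosa cells lay down around the follicle. The 6 type IV genes lie in head-to-head pairs, Col4a1 with Col4a2, Col4a3 with Col4a4 and Col4a5 with Col4a6, and the chains of a pair often end up in the same trimer. Newly made chains are hydroxylated on proline and lysine, folded by chaperones of the endoplasmic reticulum, and crosslinked outside the cell by lysyl oxidases.

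The start region of Col4a1 and Col4a2 is shown because the first exons of these genes overlap there. In the gene models of GENCODE M21 on GRCm38 the first exons of Col4a1 (minus strand) and Col4a2 (plus strand) overlap by 22 bases at chr8:11312805-11312826, printed on the plus strand:
Col4a1 and Col4a2 overlap: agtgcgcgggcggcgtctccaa
The annotated starts of Col4a3 and Col4a4 are 72 bases apart and those of Col4a5 and Col4a6 are 1309 bases apart. For the pool-dependent members described below, RefSeq (GRCm38.p6) gave a 250-base window before the start that held no annotated exon for Col11a1 (chr3:114030290-114030539, plus strand), Col27a1 (chr4:63215162-63215411, plus strand), Col5a3 (chr9:20815068-20815317, minus strand) and Col4a6 (chrX:141474077-141474326, minus strand). Each is printed 5′ to 3′ on its gene's strand, with matches to 6 motifs in capitals (GC box GGGCGG, the CCAAT box, TATA box TATAAA, AP-1 site TGANTCA, FOXO site GTAAACA and TEAD site GGAATG, each on both strands):
Col11a1: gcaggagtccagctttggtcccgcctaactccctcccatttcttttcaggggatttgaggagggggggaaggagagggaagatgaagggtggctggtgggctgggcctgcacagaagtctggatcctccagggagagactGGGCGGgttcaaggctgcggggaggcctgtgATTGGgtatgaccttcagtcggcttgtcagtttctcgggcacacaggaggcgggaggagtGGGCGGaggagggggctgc
Col27a1: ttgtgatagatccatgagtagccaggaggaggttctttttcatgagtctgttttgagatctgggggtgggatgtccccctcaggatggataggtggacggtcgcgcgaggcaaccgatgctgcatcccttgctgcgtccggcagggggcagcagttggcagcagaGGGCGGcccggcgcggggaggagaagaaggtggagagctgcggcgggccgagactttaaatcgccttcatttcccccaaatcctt
Col5a3: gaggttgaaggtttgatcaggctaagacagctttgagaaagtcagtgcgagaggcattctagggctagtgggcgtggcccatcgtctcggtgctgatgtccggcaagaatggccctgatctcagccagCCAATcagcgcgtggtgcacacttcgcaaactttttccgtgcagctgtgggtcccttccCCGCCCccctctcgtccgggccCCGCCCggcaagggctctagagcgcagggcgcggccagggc
Col4a6: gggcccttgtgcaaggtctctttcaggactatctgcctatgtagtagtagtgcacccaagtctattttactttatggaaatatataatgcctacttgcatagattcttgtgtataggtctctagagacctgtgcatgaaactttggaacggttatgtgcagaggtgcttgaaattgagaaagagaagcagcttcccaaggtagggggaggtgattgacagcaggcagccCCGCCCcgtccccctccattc
Col11a1 and Col5a3 each held 2 GC boxes and 1 CCAAT box, and Col27a1 and Col4a6 each held 1 GC box. Among all 32841 RefSeq windows of this length in the table, 32.7% held GGGCGG, 33.9% CCAAT, 12.4% TATAAA, 6.75% TGANTCA, 3.17% GTAAACA and 12.6% GGAATG. A match is a description of the letters and not a bound site. RefSeq windows were found for 35 of the 44 members.

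Libraries held 23851293 to 32643158 reads in genes, and levels are CPM, counts scaled to the total of these reads. Akt1 was 452 ± 68.2 CPM in scramble (mean ± SD, n = 3) and 61.3 ± 3.75 CPM, 53.9 ± 1.75 CPM, 80.5 ± 1.68 CPM and 58.7 ± 5.15 CPM in pools 1 to 4 (n = 2 each). Scramble replicate 1 stood apart for most collagen genes. Its tested collagen genes lay at a median log2 of −0.46 from the mean of scramble replicates 2 and 3, with 33 of 37 below 0, against 0.03 over all genes tested. The collagen transcripts were long, with a median of 6460 exon bases against 3316 over all genes tested. Members did not follow length alone. Col12a1 (12154 bases) lay at log2 −1.82 and Col4a5 (6536) at −1.57, but Col7a1 (9250) at −0.20 and Col18a1 (6792) at −0.14. The part of transcript length in this was not tested. Because scramble replicate 1 stood apart, counts of collagen genes called in each comparison are given with all 11 libraries and without it. Single genes and the smaller lists are given in 1 or both of these forms. Of 13 granulosa markers 11 had at least 1 CPM in every library, Foxl2, Inha and Nr5a1 among them, while Fshr and Amh stayed under 1 CPM in all. Of 12 theca and stroma markers 8 had at least 1 CPM in every library. Aldh1a1 (2789 to 4450 CPM), Pdgfra, Pdgfrb and Dcn were among these, while the theca markers Cyp17a1 and Insl3 stayed under 1 CPM in all. The smooth muscle and pericyte list had 6 of 8 markers with at least 1 CPM in every library, and the surface epithelium list 5 of 7. Of 8 endothelial markers Kdr, Emcn and Egfl7 were above 1 CPM in every library, at 2.05 to 11.2 CPM, and Cdh5, Vwf and Tie1 below it in all. Of 8 immune markers Cd68 was above 1 CPM in every library (3.08 to 5.79 CPM), and 5, Ptprc among them, below it in all.

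Type IV and fibrillar collagens made up most of the collagen RNA of these cells. Col4a1, the type IV α1 chain, had the highest mean CPM of all genes in the files, and Col4a2 ranked number 7 among them. Per kb of exon, the scale on which genes can be compared, Col4a1 had a mean level of 749.8 CPM per kb, Col4a2 499 and Col1a1, the main chain of type I collagen, 246. The next members were Col1a2 at 163, Col5a2 at 144, Col3a1 at 106 and Col4a5 at 104 CPM per kb. Type IV genes took 55.6% of all collagen reads, fibrillar genes 30.6%, type VI genes 6.04%, FACIT genes 5.04% and short chain genes 1.98%. Of the 44 members 17 had a mean above 100 CPM, and 13 had less than 1 CPM in every library.

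**Figure D1:**
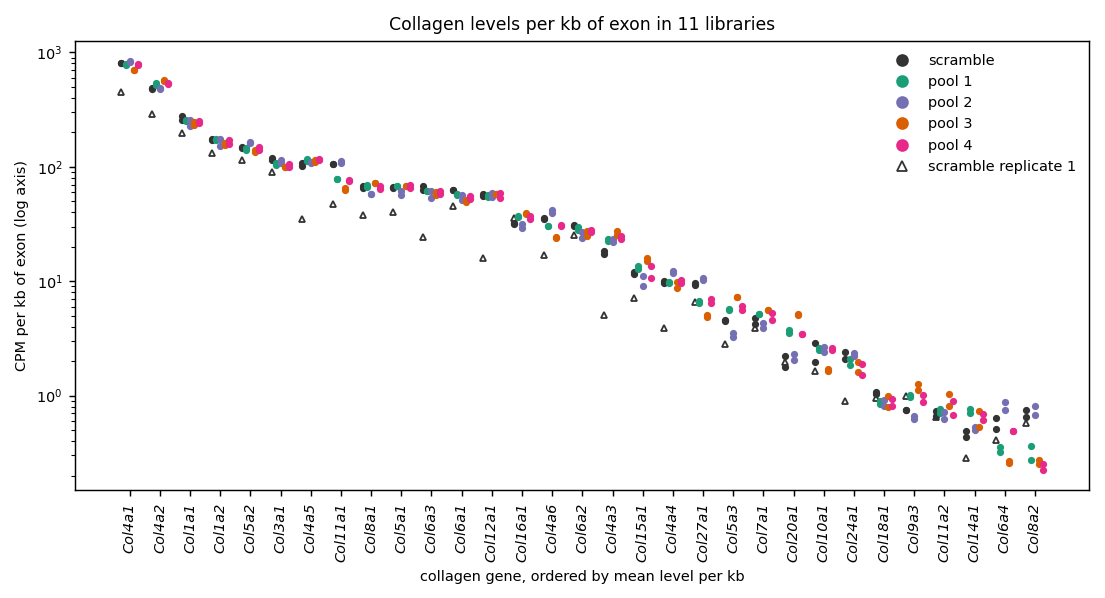
Level of each collagen gene with a mean of at least 1 CPM, in CPM per kb of exon on a log axis, with genes ordered by their mean. Each point is 1 library, coloured by group, and open triangles are scramble replicate 1, which sits below the other libraries for most of the abundant genes.

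Summed over the 44 genes, the collagen level was 10474, 17847 and 17666 CPM in scramble replicates 1 to 3. The pools had 17568 ± 334, 17653 ± 254, 16856 ± 104 and 17399 ± 363 CPM in pools 1 to 4 (mean ± SD, n = 2 each). Scramble replicate 1 was far below the other 10 libraries, which spanned 16782 to 17847 CPM, and both pool 3 libraries were the lowest of those 10. Fibrillar genes summed to 5703 and 5538 CPM in scramble replicates 2 and 3 and to 4852 and 4922 in pool 3, with 3914 in scramble replicate 1. Type IV genes summed to 9698 and 9588 CPM in scramble replicates 2 and 3, 5266 in scramble replicate 1, and 9493 and 9508 in pool 3. In bulk RNA, fewer cells of a type and less RNA per cell cannot be told apart.

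With the 8 pool libraries as 1 group against scramble, Col4a3 was the collagen gene that passed when scramble replicate 1 was left out, with an adjusted p near the threshold. With all libraries edgeR called 0 of 37 members (background 0.00707% of all genes tested), and 5 had an unadjusted p below 0.05 (4041 of all 14144 genes). DESeq2 called 2 (background 8.11%) and limma-voom 0 (background 0.00707%). The median log2 difference of the members was 0.14, against −0.02 over all genes tested. Without scramble replicate 1 the call was 1 of 37 (background 0.469%), the median was −0.06 and that of all genes 0.00. Col4a3, which encodes the α3 chain of the glomerular and other specialised basement membranes, had 43.5, 159 and 147 CPM in scramble replicates 1 to 3, 192 and 201 in pool 1, 199 and 187 in pool 2, 234 and 216 in pool 3, and 199.9 and 211 in pool 4. All 8 pool libraries were above all 3 scramble libraries. It differed by log2 0.36 ± 0.07 SE, adjusted p = 0.0461 without scramble replicate 1, and log2 0.77 ± 0.29 SE, adjusted p = 0.132 with it. On the same 10 libraries its adjusted p was 0.0606 with an offset for the trend with transcript length, which ends the call. DESeq2 called 3 members there (background 4.07%). Differences between pools count as error in this fit, so members that differ among pools have wide errors.

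In single pools the number of collagen genes called is given beside the share of all genes called, which varied between pools as well. With all libraries, 2 of 37 members were called in pool 1 (background 1.93%), 0 in pool 2 (background 0.00707%), 6 in pool 3 (background 11.2%) and 2 in pool 4 (background 2.57%). For pool 2, 1 member had an unadjusted edgeR p below 0.05 (653 of all 14144 genes), and DESeq2 and limma-voom called 0 each (background 0.198% and 0.00707%). Without scramble replicate 1 the calls were 17 in pool 1 (background 28.8%), 9 in pool 2 (background 4.39%), 27 in pool 3 (background 48.8%) and 15 in pool 4 (background 31%). In pool 3 these were 9 higher (background 22.7%) and 18 lower (26.1%), with a median over the 37 members of −0.18 against 0.01 over all genes. In pool 1, 7 were higher (background 11.8%) and 10 lower (17%). In pool 4, 4 were higher (background 13.2%) and 11 lower (17.8%), and in pool 2, 4 higher (background 1.71%) and 5 lower (2.69%). Leaving out either pool 3 library, with all others kept, gave 1 call in pool 3 (background 1.46% and 2.17%). Leaving out either library of pool 1 (background 0.104% and 0.0626%) or of pool 4 (background 0.118% and 0.243%) gave 0 in that pool. The pools share the scramble libraries, so these counts are not independent of each other.

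The pools also differed from each other, which does not rest on the scramble levels. The members Col8a2, Col20a1 and Col6a4 were called as differing among the 4 pools with all libraries (3 of 37, background 2.46%), and 23 without scramble replicate 1 (background 42.8%). Scramble replicate 1 enters this test only through the shared estimate of spread. Pool 2, set against the average of pools 1, 3 and 4, gave 5 calls with all libraries (background 5.25%) and 21 without scramble replicate 1 (background 43.7%), 10 higher (background 23.5%) and 11 lower (20.3%). Pool 3 against the others gave 2 calls (background 1.83%) and 23 (background 39.6%), 11 higher (background 18.1%) and 12 lower (21.5%). Pool 1 gave 0 with all libraries (background 0.0141%) and 0 without scramble replicate 1 (background 1.73%), with 1 and 9 members at an unadjusted edgeR p below 0.05 (201 of 14144 and 1634 of 14062 among all genes). Pool 4 gave 0 (background 0%) and 0 (background 1.49%), with 1 and 4 such members (192 of 14144 and 1396 of 14062 among all genes). DESeq2 called 0 in both pools either way (background 0.0636% in each with all libraries, 1.34% and 1.32% without scramble replicate 1). With all libraries limma-voom also called 0 in both (background 0.0141% and 0%). Pool 2 is the pool that lacks siRNA 7, and for Col11a1, Col27a1 and Col20a1 its libraries lay nearest to scramble replicates 2 and 3, those of pool 3 farthest from them, and those of pools 1 and 4 between. This order did not hold for every member, and for Col4a4, Col5a2 and Col8a1 the pool 2 mean was the farthest from scramble replicates 2 and 3. These genes were chosen after their values were seen.

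**Figure D2:**
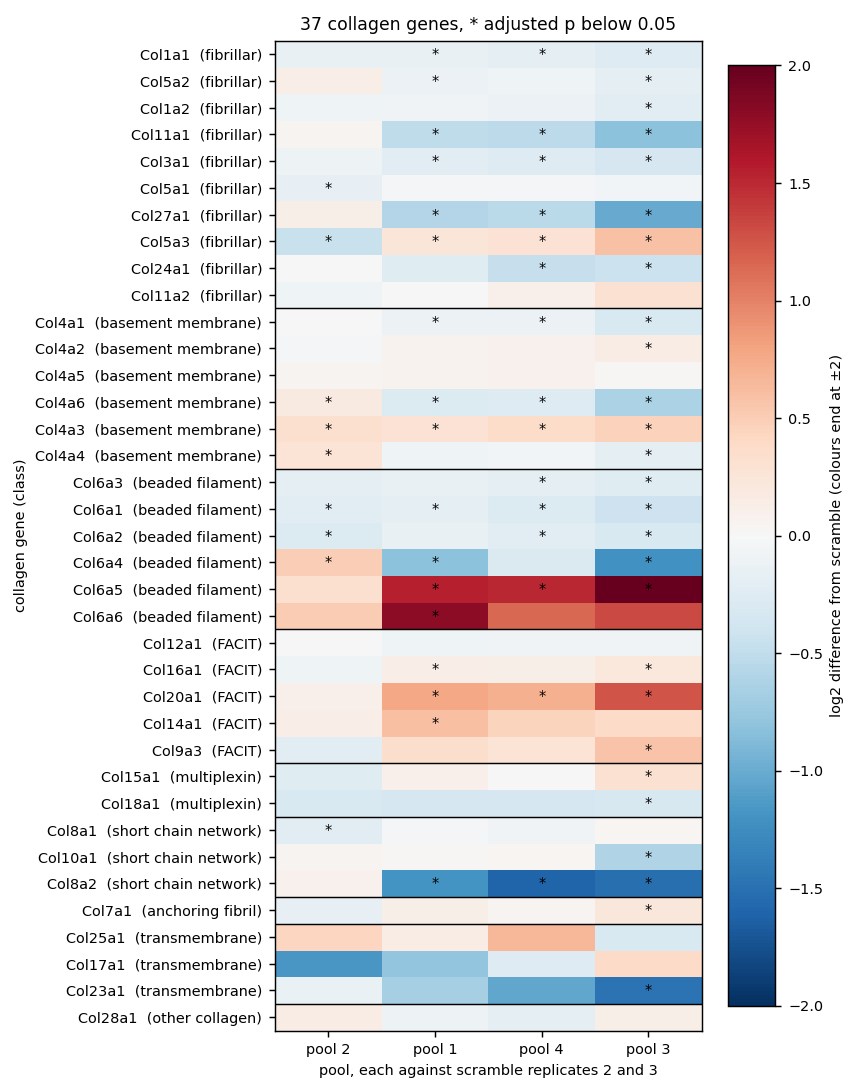
edgeR log2 differences of the 37 tested collagen genes in each pool against scramble replicates 2 and 3, with genes grouped by class and pools ordered 2, 1, 4, 3. Asterisks mark adjusted p below 0.05 (9, 17, 15 and 27 genes in that order), and colours end at ±2.

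Among the fibrillar collagens, Col11a1 and Col27a1 fell and Col5a3 rose in pools 1, 3 and 4. Of the 10 tested fibrillar genes 8 passed in pool 3 without scramble replicate 1, 1 higher and 7 lower (background 48.8% of all genes). The counts were 6 in pool 1 (1 higher, 5 lower, background 28.8%), 6 in pool 4 (1 higher, 5 lower, background 31%) and 2 in pool 2, both lower (background 4.39% called, 2.69% lower). With all libraries Col27a1 and Col5a3 passed, in pool 3.

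Col11a1, the α1 chain of type XI collagen, which nucleates thin fibrils, had 361, 809 and 804 CPM in scramble replicates 1 to 3, 596 and 598 in pool 1, 831 and 863 in pool 2, 499 and 476 in pool 3, and 581 and 591 in pool 4. Both pool 2 libraries were above scramble replicates 2 and 3, all 6 libraries of pools 1, 3 and 4 were below them, and the pool 3 libraries were lowest except for scramble replicate 1. Against the other pools pool 2 was higher (log2 0.67 ± 0.03 SE, adjusted p = 2.65e-13 without scramble replicate 1). Pool 3 against scramble was log2 −0.82 ± 0.04 SE, adjusted p = 6.36e-13 without scramble replicate 1 and log2 −0.51 ± 0.31 SE, adjusted p = 0.327 with it. Col27a1, a fibrillar chain best known from cartilage, had 49.6, 73.3 and 70.9 CPM in scramble replicates 1 to 3, 48.7 and 51.6 in pool 1, 77.5 and 80.9 in pool 2, 37.3 and 38.7 in pool 3, and 49.6 and 53.4 in pool 4. Its pool 3 libraries were the lowest of all 11. Pool 3 fell against scramble with all libraries (log2 −0.83 ± 0.17 SE, adjusted p = 0.0187) and without scramble replicate 1 (log2 −1.01 ± 0.05 SE, adjusted p = 2.26e-12), and pool 2 was above the other pools (log2 0.83 ± 0.14 SE, adjusted p = 0.0134 with all libraries).

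Col5a3, the α3 chain of type V collagen, went the other way, with 17.2, 28.2 and 27.8 CPM in scramble replicates 1 to 3, 35 and 34.6 in pool 1, 20 and 21.6 in pool 2, 44.6 and 44.9 in pool 3, and 34.2 and 37.2 in pool 4. Pool 3 held its 2 highest libraries, and pool 2 lay below scramble replicates 2 and 3 but above scramble replicate 1. It rose in pool 3 with all libraries (log2 0.81 ± 0.20 SE, adjusted p = 0.0378) and was lower in pool 2 than in the other pools (log2 −0.82 ± 0.19 SE, adjusted p = 0.0471). Its partner Col5a1, the chain common to type V fibrils, had 338, 561 and 545 CPM in scramble replicates 1 to 3, 571 and 573 in pool 1, 481 and 521 in pool 2, 566 and 572 in pool 3, and 549.8 and 577 in pool 4. Outside scramble replicate 1 the Col5a1 libraries spanned a narrow range, lowest in pool 2, where the difference from scramble replicates 2 and 3 was log2 −0.16 ± 0.04 SE, adjusted p = 0.0376. Col5a2, another chain of that trimer, had 761, 987 and 964 CPM in scramble replicates 1 to 3, 926 and 963 in pool 1, 1087 and 1067 in pool 2, 931 and 892 in pool 3, and 929.5 and 987 in pool 4. Both pool 2 libraries were the highest of the 11, and pool 2 was above the other pools by log2 0.26 ± 0.03 SE, adjusted p = 2.29e-06 without scramble replicate 1.

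In pool 3 the type I and type III chains moved less than Col11a1, Col27a1 and Col5a3. Col1a1 had 1171, 1651 and 1526 CPM in scramble replicates 1 to 3, 1491 and 1517 in pool 1, 1360.0 and 1534 in pool 2, 1369 and 1469 in pool 3, and 1446 and 1491 in pool 4. Scramble replicate 1 was the lowest library, and pool 3 lay below scramble replicates 2 and 3 by log2 −0.25 ± 0.05 SE, adjusted p = 0.000445, while with all libraries the value was log2 −0.10 ± 0.16 SE, adjusted p = 0.693. Its partner Col1a2 had 708, 930.3 and 912 CPM in scramble replicates 1 to 3, 935 and 911 in pool 1, 820.1 and 938 in pool 2, 834 and 859.6 in pool 3, and 849 and 916 in pool 4. Pool 3 was again under scramble replicates 2 and 3 (log2 −0.21 ± 0.05 SE, adjusted p = 0.00204), with log2 −0.08 ± 0.14 SE, adjusted p = 0.75 when all libraries were used. Col3a1, the chain of type III collagen, had 499, 642 and 669.6 CPM in scramble replicates 1 to 3, 582 and 596 in pool 1, 597 and 639 in pool 2, 552 and 551 in pool 3, and 556 and 585 in pool 4. All 8 pool libraries were below scramble replicates 2 and 3 and above scramble replicate 1. Without scramble replicate 1 Col3a1 fell in pool 3 (log2 −0.34 ± 0.04 SE, adjusted p = 1.26e-06), pool 1 (log2 −0.22) and pool 4 (log2 −0.26), and in no pool with all libraries, where pool 3 gave an adjusted p of 0.388. Col24a1, a minor fibrillar chain, was 16 ± 1.59 CPM in scramble replicates 2 and 3 (mean ± SD, n = 2), 6.4 in scramble replicate 1 and 12.8 ± 1.73 CPM in pool 3 (log2 −0.42, adjusted p = 0.00302 without scramble replicate 1). Col11a2, another chain of type XI, was called in no pool and ranged from 3.95 to 6.46 CPM over the 11 libraries.

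**Figure D3:**
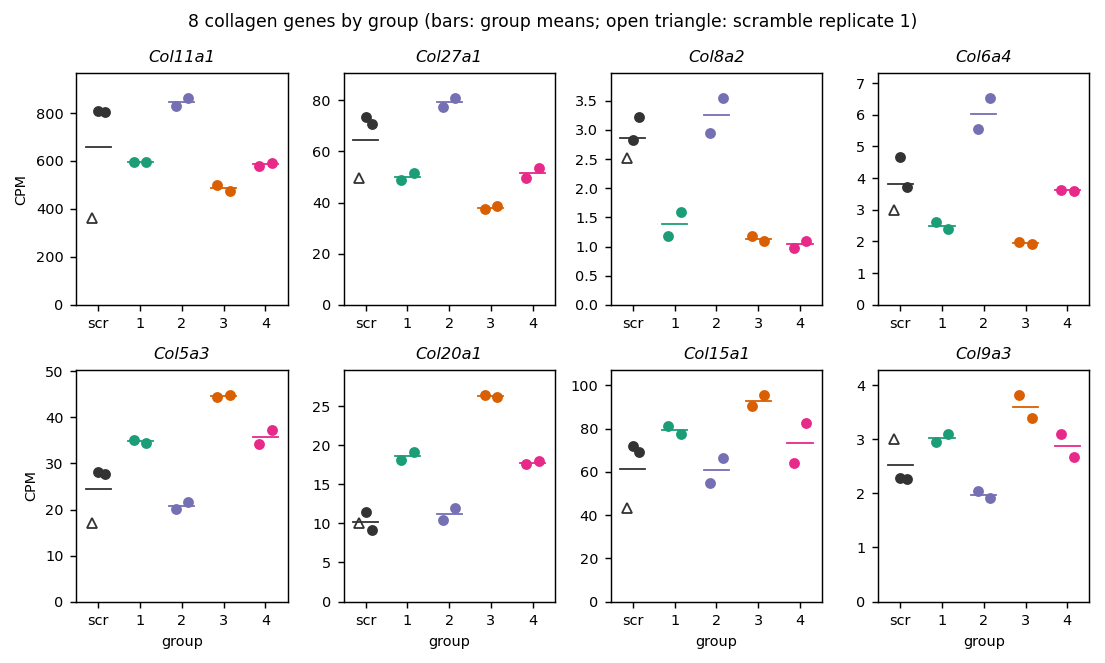
CPM of 8 collagen genes in each library, by group (scr, scramble; 1 to 4, the pools), with bars at group means and an open triangle for scramble replicate 1. Col11a1, Col27a1, Col8a2 and Col6a4 are high in pool 2 and low in pool 3 (Col8a2 is lowest in pool 4), and Col5a3, Col20a1, Col15a1 and Col9a3 are low in pool 2 and high in pool 3.

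The 6 type IV genes did not move as one group, and in pool 3 the ratio within each head-to-head pair was away from that in scramble replicates 2 and 3. In pool 3, 5 of 6 passed without scramble replicate 1 (2 higher, 3 lower, background 48.8% of all genes), with 3 in pool 1 (1 higher, 2 lower, background 28.8%), 3 in pool 4 (1 higher, 2 lower, background 31%) and 3 in pool 2, all higher (background 4.39% called, 1.71% higher). With all libraries the lowest adjusted p among the 6 in pool 3 was 0.243, above the threshold of 0.05. Col4a1 had 2958, 5382 and 5346 CPM in scramble replicates 1 to 3, 5092 and 5283 in pool 1, 5545 and 5402 in pool 2, 4599.7 and 4649 in pool 3, and 5105 and 5197 in pool 4. Outside scramble replicate 1 the pool 3 libraries were the lowest. Col4a2 had 1884, 3158 and 3065 CPM in scramble replicates 1 to 3, 3352 and 3516 in pool 1, 3139 and 3073 in pool 2, 3658 and 3668 in pool 3, and 3441 and 3454 in pool 4. For it the pool 3 libraries were the highest of all 11.

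Col4a1 fell in pool 3 without scramble replicate 1 (log2 −0.30 ± 0.04 SE, adjusted p = 1.08e-06) while Col4a2 rose (log2 0.15 ± 0.04 SE, adjusted p = 0.00383). With all libraries the values were log2 −0.05 (adjusted p = 0.9) for Col4a1 and 0.37 (adjusted p = 0.301) for Col4a2. Pool 2 exceeded the other pools in Col4a1 by log2 0.19 ± 0.03 SE, adjusted p = 2.89e-05 and was below them in Col4a2 by log2 −0.12 ± 0.03 SE, adjusted p = 0.00393, both without scramble replicate 1. The ratio of Col4a1 to Col4a2 per kb within a library was 1.53, 1.66 and 1.7 in scramble replicates 1 to 3, 1.48 and 1.46 in pool 1, 1.72 and 1.71 in pool 2, 1.23 and 1.24 in pool 3, and 1.45 and 1.47 in pool 4. The ratios were lowest in both pool 3 libraries, and pools 1 and 4 lay below every scramble and pool 2 library. These genes have 6.62 and 6.45 kb of exon, and scramble replicate 1 is closer to the others in the ratio than in either level. It lay at log2 −0.86 for Col4a1 and −0.72 for Col4a2 from the mean of scramble replicates 2 and 3. The part of transcript length in the ratio was not tested. Whether reads in the overlap of the 2 starts were assigned by strand is not known, since the strand setting of the counting is not given in the sources used here.

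Col4a5 had 229, 661 and 701 CPM in scramble replicates 1 to 3, 738 and 758 in pool 1, 721 and 708 in pool 2, 744 and 725 in pool 3, and 748 and 761 in pool 4. It was called in no pool, with pool 3 at log2 0.02 ± 0.04 SE, adjusted p = 0.72 without scramble replicate 1. Col4a6, whose chain pairs with α5 in smooth muscle and epithelial basement membranes, had 113, 237 and 232 CPM in scramble replicates 1 to 3, 202 and 203 in pool 1, 277 and 263 in pool 2, 159 and 162 in pool 3, and 201 and 207 in pool 4. Pool 2 held the 2 highest libraries and pool 3 the 2 lowest besides scramble replicate 1. Against scramble replicates 2 and 3 Col4a6 rose in pool 2 (log2 0.19 ± 0.04 SE, adjusted p = 0.00742) and fell in pool 3 (log2 −0.64 ± 0.04 SE, adjusted p = 4.72e-11), pool 1 (log2 −0.28) and pool 4 (log2 −0.26). With all libraries pool 3 was at log2 −0.35 (adjusted p = 0.45). The Col4a5 to Col4a6 ratio per kb was 2.06, 2.84 and 3.07 in scramble replicates 1 to 3, 3.72 and 3.79 in pool 1, 2.65 and 2.74 in pool 2, 4.76 and 4.56 in pool 3, and 3.79 and 3.75 in pool 4. It was highest in pool 3, and every library of pools 1, 3 and 4 lay above every library of scramble and pool 2.

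Col4a3, given above, rose in all 4 pools without scramble replicate 1, by log2 0.30, 0.32, 0.47 and 0.37 in pools 1 to 4 (adjusted p at most 0.000413). Its neighbour Col4a4 had 39.1, 102 and 98 CPM in scramble replicates 1 to 3, 97.6 and 99.4 in pool 1, 124 and 119 in pool 2, 99.1 and 88.3 in pool 3, and 97.5 and 104 in pool 4. Pool 2 held its 2 highest libraries, with log2 0.27 ± 0.05 SE, adjusted p = 0.00281 against scramble replicates 2 and 3, while pool 3 was lower by log2 −0.18 ± 0.05 SE, adjusted p = 0.00602. With all libraries pool 3 was at log2 0.16 (adjusted p = 0.782). The Col4a3 to Col4a4 ratio per kb was 1.31, 1.84 and 1.77 in scramble replicates 1 to 3, 2.33 and 2.39 in pool 1, 1.89 and 1.85 in pool 2, 2.78 and 2.89 in pool 3, and 2.42 and 2.4 in pool 4. Pool 3 again held the 2 highest ratios. By contrast the ratio of Col1a1 to Col1a2, chains of 1 trimer on different chromosomes, was 1.49, 1.6 and 1.51 in scramble replicates 1 to 3, 1.44 and 1.5 in pool 1, 1.5 and 1.48 in pool 2, 1.48 and 1.54 in pool 3, and 1.54 and 1.47 in pool 4, and the groups overlapped. Ratios are descriptions and were not tested.

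**Figure D4:**
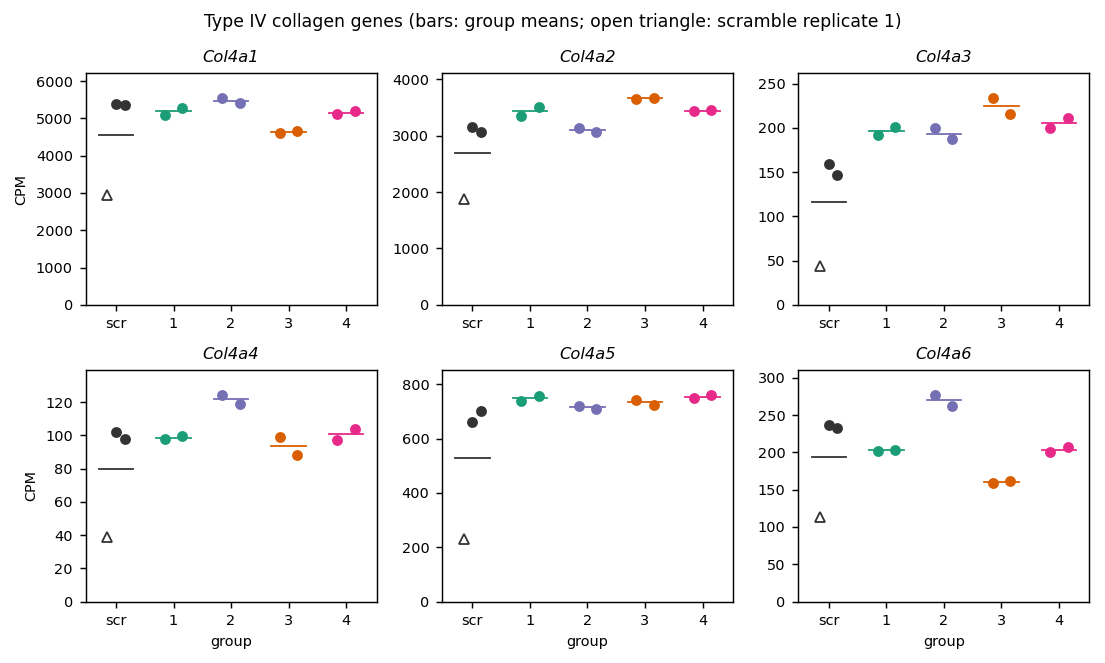
CPM of the 6 type IV collagen genes in each library, by group, with bars at group means and an open triangle for scramble replicate 1. Within each head-to-head pair 1 gene (Col4a1, Col4a4 or Col4a6) has its lowest pool mean in pool 3, and its partner has its lowest pool mean in pool 2.

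**Figure D5:**
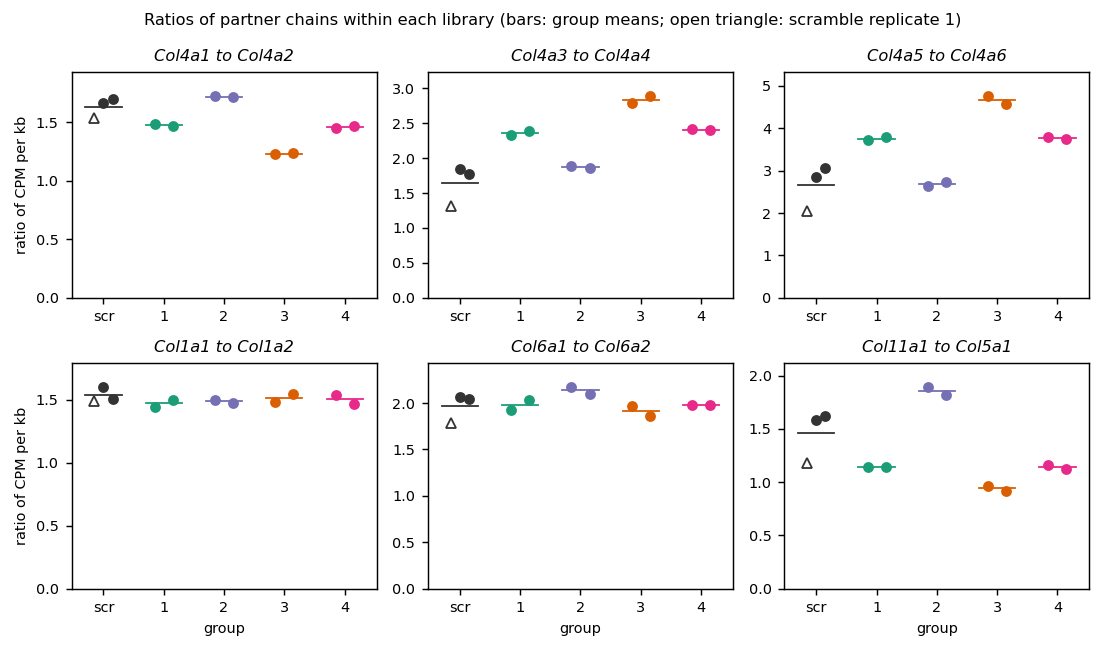
Ratio of CPM per kb between 2 chains within each library, for 6 pairs, by group, with bars at group means and an open triangle for scramble replicate 1. The 3 type IV ratios and Col11a1 to Col5a1 set pool 3 apart from scramble and pool 2, with pools 1 and 4 between, while Col1a1 to Col1a2 stays between 1.44 and 1.60 in every library.

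Type VI collagen forms beaded filaments around cells from Col6a1, Col6a2 and 1 further chain, Col6a3 or one of Col6a4 to Col6a6. Without scramble replicate 1 the 3 abundant chains fell in pool 3 (background 26.1% of all genes lower) and pool 4 (background 17.8% lower). Col6a1 had 187, 255 and 259 CPM in scramble replicates 1 to 3, 236 and 232 in pool 1, 211 and 234 in pool 2, 202 and 211 in pool 3, and 216 and 226 in pool 4. All 8 pool libraries were below scramble replicates 2 and 3, and it fell in every pool without scramble replicate 1 (log2 −0.20, −0.23, −0.41 and −0.28 in pools 1 to 4). With all libraries pool 3 was at log2 −0.25 ± 0.15 SE, adjusted p = 0.329. Col6a2 had 153, 181 and 186 CPM in scramble replicates 1 to 3, 179 and 168 in pool 1, 142 and 163 in pool 2, 150.4 and 166 in pool 3, and 160.4 and 167 in pool 4. Its pools all lay under scramble replicates 2 and 3, by log2 −0.30 ± 0.06 SE, adjusted p = 0.000213 in pool 3. Col6a3 had 265, 682 and 734 CPM in scramble replicates 1 to 3, 670.2 and 673 in pool 1, 581 and 671 in pool 2, 614 and 655 in pool 3, and 629.6 and 664 in pool 4, and pool 3 was at log2 −0.25 ± 0.06 SE, adjusted p = 0.000926 without scramble replicate 1 and log2 0.10 (adjusted p = 0.869) with it.

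The rare chains differed more. Col6a4 had 3, 4.68 and 3.73 CPM in scramble replicates 1 to 3, 2.6 and 2.4 in pool 1, 5.55 and 6.53 in pool 2, 1.99 and 1.91 in pool 3, and 3.64 and 3.59 in pool 4. The pool 3 libraries were the lowest and the pool 2 libraries the highest of the 11. It was called as differing among the pools with all libraries (adjusted p = 0.0172), fell in pool 3 (log2 −1.03 ± 0.21 SE, adjusted p = 0.0174) and was higher in pool 2 than in the others (log2 1.27 ± 0.16 SE, adjusted p = 0.00431). Col6a5 had 0.306, 0.111 and 0.21 CPM in scramble replicates 1 to 3, 0.385 and 0.608 in pool 1, 0.197 and 0.201 in pool 2, 0.662 and 0.69 in pool 3, and 0.469 and 0.477 in pool 4. Both pool 3 libraries were the highest, at less than 1 CPM, and the call in pool 3 was log2 1.58 ± 0.35 SE, adjusted p = 0.0256 with all libraries, lost with the length offset (adjusted p = 0.106). Col6a6 stayed under 1 CPM, between 0.0839 and 0.608, and rose in pool 1 without scramble replicate 1 (log2 1.80 ± 0.60 SE, adjusted p = 0.0296). These values rest on few reads. The median over the 6 type VI genes in pool 3 was −0.27 without scramble replicate 1 and −0.05 with it, against 0.01 and −0.02 over all genes tested.

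FACIT collagens sit on the surface of fibrils. Without scramble replicate 1, 3 of the 5 tested rose in pool 3 (background 22.7% of all genes higher), 3 in pool 1 (background 11.8% higher) and 1 in pool 4 (background 13.2% higher). None fell in these pools (background 26.1%, 17% and 17.8% lower in that order). Of the 5, 4 were lower in pool 2 than in the other pools (background 20.3% lower). Col20a1 had 10, 11.4 and 9.18 CPM in scramble replicates 1 to 3, 18.1 and 19.1 in pool 1, 10.4 and 12 in pool 2, 26.5 and 26.2 in pool 3, and 17.6 and 17.9 in pool 4. Every library of pools 1, 3 and 4 exceeded every library of scramble and pool 2, and pool 3 was highest. With all libraries it rose in pool 3 (log2 1.30 ± 0.12 SE, adjusted p = 0.000651), pool 1 (log2 0.81, adjusted p = 0.0145) and pool 4 (log2 0.75, adjusted p = 0.0185), and differed among the pools (adjusted p = 0.0142). Pool 2 was below the other pools by log2 −0.82 ± 0.11 SE, adjusted p = 0.00546.

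Col9a3, a chain of type IX collagen whose partners Col9a1 and Col9a2 were under the filter, had 3, 2.28 and 2.26 CPM in scramble replicates 1 to 3, 2.95 and 3.11 in pool 1, 2.04 and 1.91 in pool 2, 3.82 and 3.38 in pool 3, and 3.09 and 2.68 in pool 4. Pool 3 held its highest libraries and pool 2 its lowest, with log2 0.57 ± 0.17 SE, adjusted p = 0.0073 in pool 3 without scramble replicate 1 and log2 0.44 ± 0.16 SE, adjusted p = 0.116 with it. DESeq2 without it gave an adjusted p of 0.0593. Col16a1 had 186, 167 and 165 CPM in scramble replicates 1 to 3, 188 and 194 in pool 1, 152 and 164 in pool 2, 206 and 202 in pool 3, and 181 and 194 in pool 4, and pool 3 rose over scramble replicates 2 and 3 (log2 0.20 ± 0.05 SE, adjusted p = 0.000932). With all libraries the Col16a1 difference in pool 3 was 0.17 (adjusted p = 0.252). Col14a1 rose in pool 1 without scramble replicate 1 (log2 0.60 ± 0.16 SE, adjusted p = 0.00829), from 2.99 ± 0.273 CPM in scramble replicates 2 and 3 to 4.74 ± 0.213 CPM (mean ± SD, n = 2 each). Scramble replicate 1 had 1.84 CPM of Col14a1. Col12a1, the most abundant FACIT gene, had 195, 674 and 699.6 CPM in scramble replicates 1 to 3, 666 and 689.6 in pool 1, 657 and 722 in pool 2, 702 and 697 in pool 3, and 655 and 711 in pool 4. It was called in no comparison, and scramble replicate 1 lay at log2 −1.82 from the mean of scramble replicates 2 and 3.

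Short chain collagens form hexagonal nets, as in the membrane under the corneal endothelium. Col8a2, a chain of type VIII collagen, fell in the 3 pools that hold siRNA 7, and had 2.51, 2.84 and 3.23 CPM in scramble replicates 1 to 3, 1.19 and 1.59 in pool 1, 2.95 and 3.55 in pool 2, 1.18 and 1.1 in pool 3, and 0.978 and 1.1 in pool 4. Each library of pools 1, 3 and 4 was below each library of scramble and pool 2. With all libraries the differences were log2 −1.09 ± 0.20 SE, adjusted p = 0.0353 in pool 1, log2 −1.39 ± 0.20 SE, adjusted p = 0.00454 in pool 3 and log2 −1.50 ± 0.21 SE, adjusted p = 0.0106 in pool 4. Pool 2 was at log2 0.19 ± 0.18 SE, adjusted p = 0.618, and above the other pools by log2 1.52 ± 0.16 SE, adjusted p = 0.00168. Over the 4 pools it gave an adjusted p of 0.0109. Its partner Col8a1 had 195, 330.2 and 347 CPM in scramble replicates 1 to 3, 339 and 353 in pool 1, 297 and 293 in pool 2, 371 and 368 in pool 3, and 347 and 326 in pool 4. There the pool 2 libraries were the lowest besides scramble replicate 1 (log2 −0.22 ± 0.04 SE, adjusted p = 0.00373 without it), and pool 3 was not called. Col10a1, known from hypertrophic cartilage, fell in pool 3 without scramble replicate 1 (log2 −0.60 ± 0.15 SE, adjusted p = 0.00175), to 5.26 ± 0.102 CPM (n = 2) from 7.56 ± 2.05 CPM in scramble replicates 2 and 3 (n = 2). Scramble replicate 1, at 5.177 CPM, lay at the level of the pool 3 libraries (5.183 and 5.328).

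Of the multiplexins, which carry heparan or chondroitin sulfate chains near basement membranes, Col15a1 rose in pool 3 without scramble replicate 1 (log2 0.31 ± 0.08 SE, adjusted p = 0.00452), with 43.3, 71.9 and 69.3 CPM in scramble replicates 1 to 3, 81.1 and 77.5 in pool 1, 54.8 and 66.6 in pool 2, 90.3 and 95.7 in pool 3, and 64.3 and 82.6 in pool 4. Pool 3 held its 2 highest libraries. Col18a1, the source of endostatin, was lower in pool 3 (log2 −0.32 ± 0.13 SE, adjusted p = 0.0445). Col7a1, which anchors epithelia to the matrix below, had 36.4, 44.2 and 39.5 CPM in scramble replicates 1 to 3, 48.1 and 47.6 in pool 1, 39.6 and 36.1 in pool 2, 52.2 and 51.8 in pool 3, and 42 and 48.5 in pool 4, highest in pool 3 (log2 0.22 ± 0.07 SE, adjusted p = 0.00921). With all libraries none of these 3 was called in pool 3, at log2 0.52, −0.26 and 0.31 in that order. The transmembrane genes Col17a1, Col23a1 and Col25a1, like Col28a1, stayed under 1 CPM in every library. Among them Col23a1 fell in pool 3 without scramble replicate 1 (log2 −1.48 ± 0.57 SE, adjusted p = 0.0361), and Col17a1 was higher in pool 3 than in the other pools (log2 1.13, adjusted p = 0.0261). On the same 10 libraries DESeq2 did not call these differences of Col15a1, Col18a1, Col23a1 and Col17a1 (adjusted p = 0.0726, 0.145, 0.125 and 0.135), and the length offset ended the call of Col18a1 (adjusted p = 0.0822).

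Genes that modify, fold and process collagen were read from 6 lists. Of 15 genes for prolyl and lysyl modification, 6 passed in pool 3 with all libraries (1 higher, 5 lower, background 11.2% of all genes) and 13 without scramble replicate 1 (1 higher, 12 lower, background 48.8%), with medians of −0.35 and −0.21 against −0.02 and 0.01 over all genes. Plod1, a lysyl hydroxylase, had 107, 103 and 96.7 CPM in scramble replicates 1 to 3, 57.9 and 56.3 in pool 1, 85.5 and 90.9 in pool 2, 45.1 and 47.9 in pool 3, and 48.8 and 54.5 in pool 4. Its pool 3 libraries were the lowest, and pool 3 was at log2 −1.20 ± 0.09 SE, adjusted p = 0.00037 with all libraries, while pool 2 was above the other pools by log2 0.83 ± 0.08 SE, adjusted p = 0.000822. Colgalt1, which adds galactose to hydroxylysine, was at log2 −0.54 ± 0.08 SE, adjusted p = 0.00476 in pool 3, and P4hb, the β subunit of prolyl 4-hydroxylase, at log2 −0.54 ± 0.12 SE, adjusted p = 0.0268. P3h3, a prolyl 3-hydroxylase family member, was the list's gene that rose (log2 0.52 ± 0.11 SE, adjusted p = 0.0191). Taking all pools together without scramble replicate 1, P4hb fell by 0.32 on the log2 scale (adjusted p = 0.0438).

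Of 9 genes for folding and export, the lowest adjusted p in pool 3 was 0.11 with all libraries, and 4 passed without scramble replicate 1 (1 higher, 3 lower). The share of all genes called in pool 3 was 48.8% there. Fkbp14, a prolyl isomerase of the endoplasmic reticulum, was lower in all pools together without scramble replicate 1 (log2 −0.31 ± 0.05 SE, adjusted p = 0.0331), and Serpinh1, the collagen chaperone HSP47, ranged from 1775 to 2392 CPM over the 11 libraries. Of 13 genes for processing and crosslinking, 2 rose in pool 3 with all libraries (background 4.33% of all genes higher). These were Adamts14, a procollagen N-proteinase (log2 1.22 ± 0.20 SE, adjusted p = 0.00746), and Bmp1, the procollagen C-proteinase (log2 0.41 ± 0.08 SE, adjusted p = 0.0158). Lox, a lysyl oxidase, was lower in pool 3 without scramble replicate 1 (log2 −0.50 ± 0.04 SE, adjusted p = 9.76e-09), where 2 of the 13 were higher and 4 lower (background 48.8% called). Scramble replicate 1 had 352 CPM of Lox, below the pool 3 libraries (458 and 444).

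With all libraries, 1 of 9 fibril partners and 1 of 8 collagen receptors passed in pool 3 (background 11.2%), and the lowest adjusted p of 12 basement membrane partners there was 0.104. Dcn, which encodes the fibril-binding proteoglycan decorin, had 193, 174 and 204 CPM in scramble replicates 1 to 3, 171 and 186 in pool 1, 183 and 199 in pool 2, 109.8 and 117 in pool 3, and 183 and 175 in pool 4. Pool 3 held the lowest libraries, at log2 −0.81 ± 0.10 SE, adjusted p = 0.00267. Itga1, the α subunit of an integrin that binds collagen, had 12.6, 27.5 and 26 CPM in scramble replicates 1 to 3, 13.1 and 13.7 in pool 1, 29.5 and 30 in pool 2, 11.3 and 10.4 in pool 3, and 12 and 14.2 in pool 4. It was higher in pool 2 than in the other pools (log2 1.32 ± 0.25 SE, adjusted p = 0.0202). Of the basement membrane partners 9 of 12 passed in pool 3 without scramble replicate 1, 2 higher and 7 lower (background 48.8%). Lama1, a laminin chain, was at log2 −1.08 ± 0.04 SE, adjusted p = 2.72e-14, Nid2, a nidogen that links laminin to type IV collagen, at log2 −0.82 ± 0.05 SE, adjusted p = 1.45e-11, and Lamc1, the common laminin γ chain, at log2 −0.74 ± 0.04 SE, adjusted p = 2.7e-12. Scramble replicate 1, left out there, had 399.8, 108.9 and 184.7 CPM of Lama1, Nid2 and Lamc1, beside pool 3 means of 401.8, 109.6 and 301.4. Other partners had more CPM in pool 3. Hspg2 had 1947 and 1906 CPM in scramble replicates 2 and 3 and 2335 and 2480 in pool 3. Nid1, the other nidogen, had 551 and 541 CPM in scramble replicates 2 and 3 and 699.5 and 705 in pool 3.

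The summed level of the granulosa list was lowest in pool 3. It came to 4559.8 to 4710.3 CPM in scramble replicates 2 and 3, 4060.3 to 4432 in pool 2, 3533 to 3656 in pool 1, 3359.7 to 3613 in pool 4 and 2692 to 2848 in pool 3, and 5261 was the highest library, scramble replicate 1. Of 12 tested, 7 fell in pool 3 with all libraries and none rose (background 6.84% lower and 4.33% higher over all genes). The theca and stroma list summed to 3993 to 4028 CPM in scramble replicates 2 and 3 and 3118 to 3188 in pool 3, where 2 of 10 tested fell against the same background. Most of this sum was Aldh1a1, with 3644 and 3570 CPM in scramble replicates 2 and 3 and 2872 and 2789 in pool 3. Pdgfra had 57.4 and 65.2 CPM in those scramble libraries and 64.7 and 66.2 in pool 3, and Pdgfrb 65.6 and 64.7 against 66.7 and 69.7. Immune markers summed to 9.74 to 10.8 CPM in pool 3 and 5.56 to 6.71 in scramble replicates 2 and 3, with Ptprc, Adgre1, Cd3e and Itgam under 1 CPM in every library, and endothelial markers to 24.9 to 26.4 and 18.5 to 19.9 CPM. Smooth muscle and pericyte markers summed to 660.0 to 664 and 669.9 to 762 CPM, surface epithelium markers to 95.1 to 99 and 131 to 141, and oocyte markers to 1.41 to 1.8 and 1.01 to 1.29. Members of a list moved apart. Myh11 had 122 and 117 CPM in scramble replicates 2 and 3 and 46 and 40.1 in pool 3, and Cnn1 142 and 123 against 76.5 and 70.5. Mcam had 209 and 166 CPM against 276 and 274 in pool 3. Of the immune markers, Csf1r had 1.18 and 0.964 CPM against 3.09 and 3.85 in pool 3, and Cd68 3.68 and 4.61 against 3.82 and 4.2. The part of any of these in the collagen differences was not tested.

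All 44 members are listed in the authors' deposited table, 19 of them with no adjusted p. The authors' deposited table has 2 members with an adjusted p below 0.05, both higher, Col20a1 (log2 fold change 0.64, adjusted p = 0.0269) and Col14a1 (log2 fold change 0.53, adjusted p = 0.0329). For Col4a3 the authors' deposited table gives a log2 fold change of 0.57 with no p and no adjusted p.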

How the data were processed

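Per the labels, 1.3 µg of total RNA went into each library, prepared with a strand-preserving mRNA kit and sequenced as single reads of 75 bases. Tools named in the submitters' processing notes are TopHat2, featureCounts 1.5.0-p2, cutadapt 1.9.1, bcl2fastq 2.15.0, FastQC 0.11.5 and DESeq2, with build mm10. How they were set, strand handling in the counting included, was not given in the sources used here. Whole-number counts per gene symbol are what the deposited files hold, not normalized, with 92 ERCC spike-in lines that were kept out here (0.268% to 0.788% of a library's counts). The authors' deposited table holds for each gene a mean signal, a log2 fold change and its error, a test score, and raw and adjusted p-values.

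edgeR 4.0.16 in R 4.3.3 was run on the counts (TMM scaling, filterByExpr, quasi-likelihood F test, two-sided), with Benjamini-Hochberg adjustment over all 14144 genes tested, or 14062 without scramble replicate 1, and a call at an adjusted p below 0.05. All pools against scramble used 2 groups. The other comparisons (single pools, differences over the 4 pools with 3 degrees of freedom, 1 pool set against the average of the remaining 3) used 1 fit of 5 groups. Levels per kb used union exon lengths of GENCODE M21 on GRCm38, matched by symbol for 96.6% of genes and for 44 of 44 members. Scramble replicate 1 was compared with the mean of replicates 2 and 3 on log2(CPM + 0.5). Alternatives were RLE scaling, other count filters, DESeq2 1.42.0, limma-voom (limma 3.58.1), an offset that removes each library's trend with exon length, a block for replicate number, and leaving out each library. The edgeR fit was tested on simulated data with no outlying library. That run does not cover a library such as scramble replicate 1.

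Every member is accounted for. Values per library are given for Col1a1, Col3a1, Col6a1 and Col4a3, the 12 most abundant members and most chain partners and called members, with means, ranges or log2 values alone for the rest, and pathway genes were named by p among those called or by mean CPM. The members and lists were chosen with earlier results of these data known. Same-numbered libraries of different groups did not deviate together (correlations of deviations from group means of −0.0885 to 0.116 over 20 pairs, 2 of them above 0.1), so replicate numbers were not taken to pair samples. The 2 libraries of a pool deviate from its mean by equal amounts in opposite directions. Each pair of pools therefore gives the same correlation for both numbers, and the 2 above 0.1 are that of pools 2 and 4. Replicates differed by more than counting noise in every group, and none was treated as a duplicate.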

Additional observations from a re-analysis of the deposited data

Results flagged for a closer look

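Col20a1, Col8a2 and Col6a4 responded differently to the 4 pools, by the edgeR test of any difference among the pools with all libraries (adjusted p = 0.0142, 0.0109 and 0.0172, 3 degrees of freedom, n = 2 libraries per pool). Col23a1 had its highest value of the 8 pool libraries, 0.536 CPM, in replicate 2 of pool 2, far from the other 7 for its range. At this depth that is a count of few reads, and chance flags about 1 in 20 such groups.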

How the results depend on the processing

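Of the single libraries left out, scramble replicate 1 moved the counts most. With all libraries, RLE scaling and limma-voom gave the same number of calls as the edgeR result in each comparison but 1 (pool 3 against the other pools, 1 with limma-voom, background 1.92%). DESeq2 gave 2 for all pools (background 8.11%) and 5 for differences among the pools (background 7.58%). Without the count filter pool 3 against the other pools had 1 call (background 0.82%). With CPM above 1 required in all libraries pools 1 and 4 had 1 each (background 2.45% and 2.97%). The length offset gave 7, 0, 16 and 6 calls in pools 1 to 4 against scramble (background 9.27%, 0.0848%, 26.7% and 11%). It gave 7 among the pools (background 10.1%), and 11 and 7 for pools 2 and 3 against the others (background 15.2% and 10.8%). The replicate block gave 1 for all pools (background 11.7%), and 0, 0, 5 and 1 for pools 1 to 4 (background 0.679%, 0.00707%, 8% and 1.07%). It gave 2 among the pools (background 1.03%), and 4 and 1 for pools 2 and 3 against the others (background 3.75% and 0.361%). Of the 11 libraries 6 correlated best with a library of their own number. With the block and the offset the counts were 5, 0, 14 and 4 (background 7.95%, 0.0283%, 27.9% and 10.3%), then 8, 9 and 8 (background 8.26%, 14.2% and 9.36%). Averaging the pools in the fit of 5 groups gave 2 calls (background 6.37%), and 19 without scramble replicate 1 (background 35.8%). Leaving out both pool 2 libraries gave 4 (background 9.9%).

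With scramble replicate 1 left out (chosen after seeing the data), RLE scaling gave 1 for all pools (background 0.427%). It gave 16, 9, 27 and 15 for pools 1 to 4 (background 28.8%, 4.54%, 48.9% and 31.1%), and 23 among the pools (background 42.8%). Pools 2 and 3 against the others had 21 and 23 (background 43.8% and 39.6%). There DESeq2 gave 3 for all pools (background 4.07%), and 15, 9, 23 and 14 for pools 1 to 4 (background 21.7%, 3.6%, 39.8% and 23.6%). It gave 21 among the pools (background 33.3%), and 19 and 19 for pools 2 and 3 against the others (background 34.9% and 30.5%). On the same 10 libraries the length offset gave 0 for all pools (background 0.469%), and 16, 9, 27 and 18 for pools 1 to 4 (background 30.6%, 4.86%, 50.3% and 32.6%). It gave 24 among the pools (background 44.4%), and 22 and 23 for pools 2 and 3 against the others (background 45.2% and 40.8%). In that set the replicate block gave 0 for all pools (background 0.00711%), and 15, 9, 23 and 16 for pools 1 to 4 (background 25.8%, 6.75%, 44.7% and 28.9%). It gave 24 among the pools (background 48%), and 22 and 25 for pools 2 and 3 against the others (background 47.6% and 44%). Leaving out 1 library at a time, the counts ran from 0 to 1 for all pools, 0 to 17, 0 to 9, 1 to 27 and 0 to 15 for pools 1 to 4, 0 to 23 among the pools, and 1 to 21 and 0 to 23 for pools 2 and 3 against the others. Each highest value was reached without scramble replicate 1, where the background in that order was 0.469%, 28.8%, 4.39%, 48.8%, 31%, 42.8%, 43.7% and 39.6%. Pools 1 and 4 against the others stayed at 0 in each of these settings.

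Summed CPM of the collagen classes by group moved by at least 1 SD in 13 cases and stayed within it in 37 on TMM effective library sizes, and in 25 and 25 after the length trend was removed, where all collagen genes in pool 2 summed to 16363 CPM in place of 17653. Among the calls given without scramble replicate 1, those lost on the same libraries were, with DESeq2, Col9a3 in pool 3 (0.0593), Col15a1 in pool 3 (0.0726), Col18a1 in pool 3 (0.145), Col23a1 in pool 3 (0.125) and Col17a1 in pool 3 against the others (0.135), with the offset, Col4a3 in all pools (0.0606) and Col18a1 in pool 3 (0.0822), and with the block, Col4a3 in all pools (0.573), Col9a3 in pool 3 (0.0589), Col6a6 in pool 1 (0.261), Col7a1 in pool 3 (0.125), Col10a1 in pool 3 (0.139), Col18a1 in pool 3 (0.135) and Col23a1 in pool 3 (0.559) (adjusted p). Among the calls given with all libraries, those lost were, with the offset, Col6a5 in pool 3 (0.106), without the count filter, Col5a3 in pool 2 against the others (0.0564), with the block, Col20a1 in pool 1 (0.0588), Col20a1 in pool 4 (0.0574), Col8a2 in pool 1 (0.0803), Col5a3 in pool 2 against the others (0.0571), Col6a5 in pool 3 (0.0789) and Col6a4 among the pools (0.0662), and with both, Col20a1 in pool 4 (0.0508) and Col6a5 in pool 3 (0.241) (adjusted p). Log2 differences that changed sign were not called with all libraries. With the block they were 0.0058 (Col3a1 in pool 1), 0.12 (Col24a1 in pool 3), 0.11 (Col4a1 in pool 3), 0.047 (Col6a1 in pool 1) and 0.022 (Col6a1 in pool 2). With the offset they were −0.067 (Col4a4 in pool 3), −0.13 (Col6a3 in pool 3), −0.27 (Col5a1 in pool 2), −0.067 (Col7a1 in pool 3), −0.14 (Col4a6 in pool 1), −0.13 (Col4a6 in pool 4) and −0.11 (Col8a1 in pool 2). With both they were −0.070 (Col4a4 in pool 3), −0.092 (Col6a3 in pool 3), −0.33 (Col5a1 in pool 2), −0.10 (Col16a1 in pool 3), −0.24 (Col7a1 in pool 3), −0.11 (Col4a6 in pool 1), −0.094 (Col4a6 in pool 4) and −0.041 (Col8a1 in pool 2). On the 10 other libraries with RLE scaling or DESeq2 they were −0.18 (Col4a4 in pool 3), −0.24 (Col6a3 in pool 3), −0.15 (Col5a1 in pool 2), −0.27 (Col4a6 in pool 1), −0.26 (Col4a6 in pool 4) and −0.21 (Col8a1 in pool 2). On the 10 other libraries with the offset they were −0.14 (Col4a4 in pool 3), −0.20 (Col6a3 in pool 3), −0.17 (Col5a1 in pool 2), −0.24 (Col4a6 in pool 1), −0.23 (Col4a6 in pool 4) and −0.22 (Col8a1 in pool 2). On the 10 other libraries with the block they were −0.23 (Col4a4 in pool 3), −0.14 (Col6a3 in pool 3), −0.15 (Col5a1 in pool 2), −0.29 (Col4a6 in pool 1), −0.28 (Col4a6 in pool 4) and −0.18 (Col8a1 in pool 2). With limma-voom they were 0.062 (Col24a1 in pool 3) and 5.11e-05 (Col4a1 in pool 3). Over single libraries left out, the values that changed sign spanned −0.25 to 0.0094 for Col1a1 in pool 3, −0.21 to 0.00044 for Col1a2 in pool 3, −0.42 to 0.20 for Col24a1 in pool 3, −0.30 to 0.088 for Col4a1 in pool 3, −0.18 to 0.38 for Col4a4 in pool 3, −0.28 to 0.18 for Col4a6 in pool 1, −0.26 to 0.19 for Col4a6 in pool 4, −0.16 to 0.19 for Col5a1 in pool 2, −0.20 to 0.034 for Col6a1 in pool 1, −0.23 to 0.013 for Col6a1 in pool 2, −0.25 to 0.35 for Col6a3 in pool 3 and −0.22 to 0.17 for Col8a1 in pool 2. The cause was not tested. Depth limits the members under 1 CPM, whose values rest on few reads.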
